A study of Mus musculus with 30 samples.

Results

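The genes described here are 10 mouse genes of antigen presentation by MHC class I: the heavy chains H2-K1, H2-D1 and H2-T23, the light chain B2m, the peptide transporter subunits Tap1 and Tap2, tapasin (Tapbp), and the immunoproteasome subunits Psmb8, Psmb9 and Psmb10. They were chosen on the levels measured in the fibres that overexpressed MCU, set against wild type fibres, so those differences are given below as a description, with no test. The array held 11 probes under these names among 55681 probes in all, 2 of them for H2-K1, and all 11 passed the filter on dim probes that 33164 probes passed. Tap1 passed it through the AAVMCU fibres of day 7 alone.

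Each of 30 1-colour Agilent arrays held the amplified RNA of 1 muscle fibre, taken from the extensor digitorum longus (EDL), a fast hindlimb muscle, of male CD1 mice given as 8 weeks old. CD1 is an outbred stock. The study changed the amount of MCU, the channel protein through which mitochondria take up calcium, with an adeno-associated virus (AAV) injected into the muscle. AAVMCU fibres carried a vector that overexpresses MCU (3 fibres at day 7 and 4 at day 14 after injection), and wild type fibres came from muscles without virus (4 and 4). AAVshMCU fibres carried a vector that silences MCU (3 and 4), and AAVshLuc fibres were their transfected controls (4 and 4). The titles give this control the name shLuc, while other labels describe a vector without an insert. The promoter of the vectors is not given in the sources used here. In injected muscles fibres were picked for the vectors' ZsGreen fluorescence, and RNA was amplified only from fibres that showed the intended MCU change in a quantitative PCR, so Mcu itself was part of the choice of fibres. All 10 fast fibre genes listed as markers (actin, fast myosins, parvalbumin and the like) were well above background in every fibre. The animals behind the fibres are not named, so each p-value rests on the spread of fibres, some of which may be from the same mouse.

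MHC class I molecules carry short peptides from inside a cell to its surface, where cytotoxic T cells read them. The proteasome cuts proteins into peptides, and under interferon its catalytic subunits are replaced by the immunoproteasome subunits. The TAP transporter moves the peptides into the endoplasmic reticulum, where tapasin helps to load them onto a heavy chain joined to beta-2 microglobulin. Resting muscle fibres are known for little class I on their surface, and interferon raises the whole set of genes.

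The heavy chains are close relatives, and their probes may read each other or other members of the H2 family. The brighter H2-K1 probe (mm9 build, chr17:34133984-34134043, minus strand) and the H2-T23 probe (mm9, chr17:36167338-36167574, minus strand, with a gap in the genome inside it) share 29 bases in a row, shown in capitals. Their signals may therefore not be independent, which was not tested.
H2-K1, brighter probe: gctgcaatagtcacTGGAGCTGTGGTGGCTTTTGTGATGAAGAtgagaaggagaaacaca
H2-T23: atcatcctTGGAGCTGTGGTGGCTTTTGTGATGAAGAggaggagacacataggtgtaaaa
No other pair between the 4 heavy chain probes and 47 further probes with an H2 name shared a run of 20 or more bases. The dimmer H2-K1 probe (mm9, chr17:34133055-34133114) and the H2-D1 probe (mm9, chr17:35403886-35403945) hold no such shared run. The B2m probe lies on another chromosome (mm9, chr2:121978401-121978460). The probes of 3 peptide supply genes follow, which were high in the AAVMCU fibres of day 7 and near wild type at day 14. They are Tap1 (mm9, chr17:34330854-34330913), Psmb8 (mm9, chr17:34337771-34337830) and Psmb9 (mm9, chr17:34319174-34319233).
Tap1: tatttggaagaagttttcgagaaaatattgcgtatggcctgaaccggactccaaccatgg
Psmb8: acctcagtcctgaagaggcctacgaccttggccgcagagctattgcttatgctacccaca
Psmb9: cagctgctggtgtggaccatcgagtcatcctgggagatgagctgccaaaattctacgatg
All members but B2m and Psmb10 lie on chromosome 17. The files name no exon, intron or UTR for a probe, and no annotation of build mm9 was used here.

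The classical heavy chains and B2m were high in every AAVMCU fibre of day 7. All levels are log2 of a probe's signal minus the 75th percentile of its array, and 1 unit is a doubling of signal. B2m, the light chain of all class I molecules, stood at 4.14, 4.12 and 4.58 in the AAVMCU fibres of day 7, against 0.84, 0.44, 1.13 and 0.42 in the wild type fibres. The lowest AAVMCU fibre was above the highest wild type fibre, and the difference of group means was 3.57 ± 0.36 (log2, SE). H2-D1, a classical heavy chain, had levels of 5.62, 5.76 and 5.98 in AAVMCU fibres, against 2.27, 2.28, 3.91 and 2.00 in wild type fibres. Its difference was 3.17 ± 0.36 (SE), and the wild type fibre numbered 3 was the nearest to the AAVMCU fibres. The brighter probe of H2-K1, the other classical heavy chain measured, gave 4.66, 4.75 and 5.32 in AAVMCU fibres and 1.18, 1.16, 2.26 and 1.10 in wild type fibres, a difference of 3.49 ± 0.31 (SE). The dimmer H2-K1 probe differed by 4.92 ± 0.61 (SE), with levels of 2.91 to 3.49 in AAVMCU fibres and -2.47 to -0.61 in wild type fibres. H2-T23, the nonclassical heavy chain Qa-1, which is read by natural killer cell receptors, had levels of 4.35 to 5.05 in AAVMCU fibres against 1.57 to 2.42 in wild type fibres, a difference of 2.82 ± 0.25 (SE). None of the 5 probes' groups overlapped.

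The genes that cut, carry and load peptides were high in the same 3 fibres. Psmb8, the immunoproteasome subunit LMP7, had levels of 2.03, 2.72 and 4.04 in AAVMCU fibres of day 7, all well above background. In wild type fibres they were -3.81, -2.92, -0.52 and -3.38, and only 1 of the 4 was well above background. The difference of 5.59 ± 0.64 (log2, SE) therefore rests in part on signals near the floor of detection. Psmb9, the subunit LMP2, gave 1.79, 2.14 and 3.11 in AAVMCU fibres against -0.21, -0.53, 0.10 and -0.35 in wild type fibres, a difference of 2.59 ± 0.19 (SE). Psmb10, the subunit MECL-1 (mm9, chr8:108459677-108459736), was well above background in every fibre and differed by 1.49 ± 0.18 (SE), with levels of 3.12, 3.62 and 4.26 in AAVMCU fibres and 2.01 to 2.30 in wild type fibres. None of the 3 subunits had overlapping groups, and AAVMCU fibre 3 was the highest in each of them. Tap1, a TAP subunit, was well above background in 3 of 3 AAVMCU fibres of day 7, at -1.92, -1.46 and -0.72, but in 0 of 4 wild type fibres. Its signal was at least 3.69-fold higher in AAVMCU fibres, a bound set by the lowest signals detected on the wild type arrays. Tap2, the other TAP subunit (mm9, chr17:34353116-34353175), differed by 0.91 ± 0.26 (SE), the smallest difference of the members. Its levels were -0.66, -0.51 and 0.13 in AAVMCU fibres and -1.75 to -1.06 in wild type fibres. Tapasin (mm9, chr17:34065963-34066022) stood at 1.64, 1.79 and 2.15 in AAVMCU fibres, against -0.24 to 0.54 in wild type fibres, a difference of 1.69 ± 0.32 (SE).

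**Figure D1:**
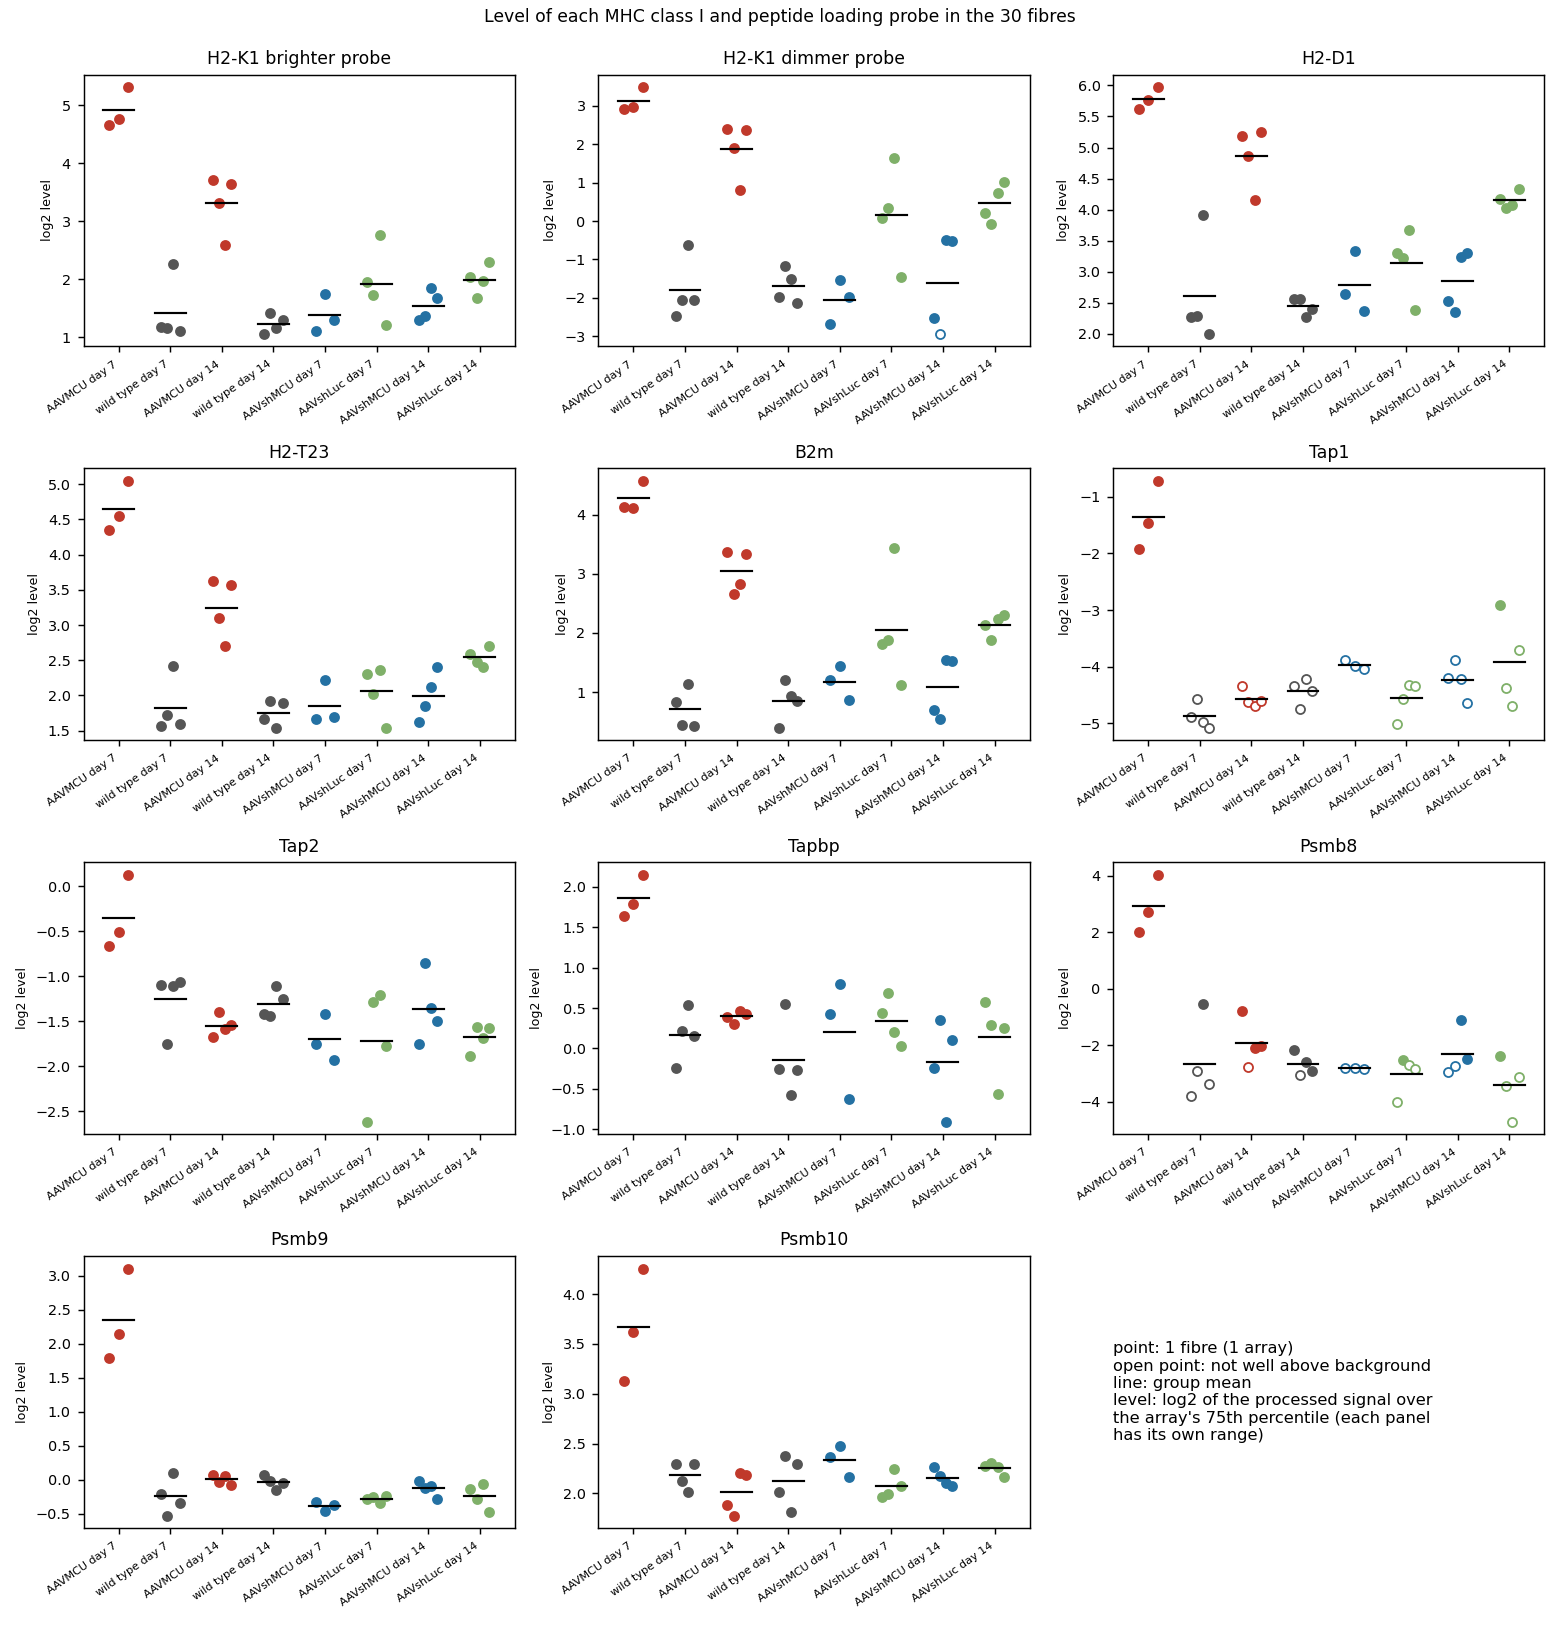
Log2 level (signal relative to the 75th percentile of the array) of the 11 probes in the 30 fibres, 1 panel a probe and 1 point a fibre, with group means as lines and open points for signals not well above background. All 11 panels have the 3 AAVMCU fibres of day 7 above the 4 wild type fibres of day 7, while the AAVMCU fibres of day 14 stand apart from wild type in the heavy chain and B2m panels.

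At day 7 all 10 members were higher in every AAVMCU fibre than in any wild type fibre, beside 3.8% of all probes that did so. Nothing is read from this count, because the members were picked on this contrast. The median difference was 2.99 over the 10 members, 3.33 over the 4 genes of the heavy and light chains and 2.14 over the 6 genes of peptide supply, beside -0.01 over all probes (log2).

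At day 14 the heavy chains and B2m were still high in AAVMCU fibres, while the genes of peptide supply were near their wild type levels. B2m stood at 3.38, 2.66, 2.83 and 3.34 in AAVMCU fibres of day 14, against 0.39, 1.21, 0.93 and 0.85 in wild type fibres, a difference of 2.21 ± 0.33 (log2, SE). H2-D1 gave 5.18, 4.86, 4.15 and 5.24 in AAVMCU fibres, against 2.56, 2.56, 2.26 and 2.40 in wild type fibres, a difference of 2.41 ± 0.33 (SE). In both genes the groups did not overlap, and the AAVMCU fibre numbered 3 was the lowest of its group for H2-D1 but not for B2m. The brighter H2-K1 probe differed by 2.08 ± 0.29, the dimmer by 3.57 ± 0.57 and H2-T23 by 1.49 ± 0.23 (SE). Psmb9, by contrast, had levels of 0.08, -0.04, 0.06 and -0.08 in AAVMCU fibres and 0.07, -0.02, -0.15 and -0.05 in wild type fibres, a difference of 0.04 ± 0.18 (SE). Tap1 was well above background in none of the 8 fibres of both groups. Psmb8 was well above background in 3 of 4 AAVMCU and 3 of 4 wild type fibres, with levels of -2.76 to -0.78 and -3.03 to -2.16, and differed by 0.76 ± 0.59 (SE). The differences of Tap2, Tapbp and Psmb10 were -0.24 ± 0.24, 0.53 ± 0.29 and -0.11 ± 0.17 (SE). The groups did not overlap in 4 of 10 members, the heavy chains and B2m, beside 4.08% of all probes, and nothing is read from this count either. The median difference at day 14 was 2.14 over the heavy chains and B2m, and -0.04 over the 6 genes of peptide supply, beside -0.03 over all probes (log2).

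**Figure D2:**
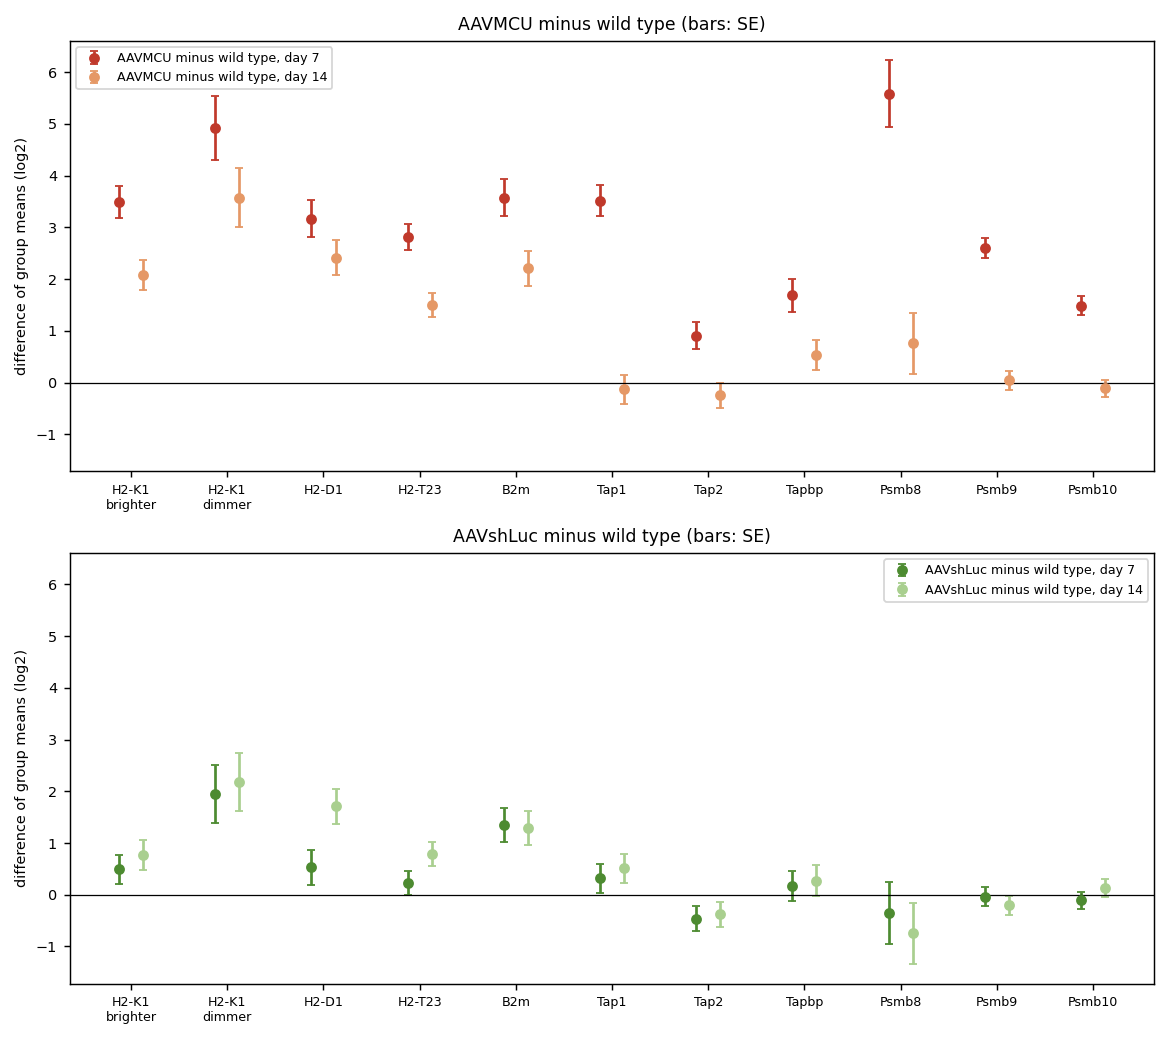
Differences of group means (log2, bars are SE) for the 11 probes, AAVMCU minus wild type above and AAVshLuc minus wild type below, at day 7 and day 14. The AAVMCU difference of Psmb9 is 2.59 at day 7 and 0.04 at day 14, while that of B2m is 3.57 and 2.21.

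The AAVMCU difference was smaller at day 14 than at day 7 in all 10 members. Nothing is read from this count, because the members were picked on the AAVMCU contrast. Day 14 minus day 7, the AAVMCU difference was -4.83 ± 0.87 for Psmb8, -3.64 ± 0.41 for Tap1, -2.55 ± 0.26 for Psmb9 and -1.60 ± 0.25 for Psmb10 (log2, SE). The Tap1 value rests on signals not well above background in all wild type fibres and the AAVMCU fibres of day 14, and the Psmb8 value on such signals in part. For B2m the difference between days was -1.37 ± 0.49, for the brighter H2-K1 probe -1.41 ± 0.42, for the dimmer -1.35 ± 0.83 and for H2-D1 -0.76 ± 0.49 (SE). Mcu ran the other way, with a mean level of 3.30 ± 0.28 in AAVMCU fibres of day 7 and 6.38 ± 0.35 in those of day 14 (SD, n = 3 and 4). Wild type fibres had Mcu levels of 2.69 ± 0.20 and 2.48 ± 0.27 (SD, n = 4 each). The Mcu probe may also read the vector's transcript, and each day lay on a slide of its own. In wild type fibres no member was past an adjusted p of 0.05 between day 14 and day 7, beside 1.2% of all probes higher and 1.11% lower. The members were picked on these fibres among others and the shares are small, so nothing is read from that count.

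**Figure D3:**
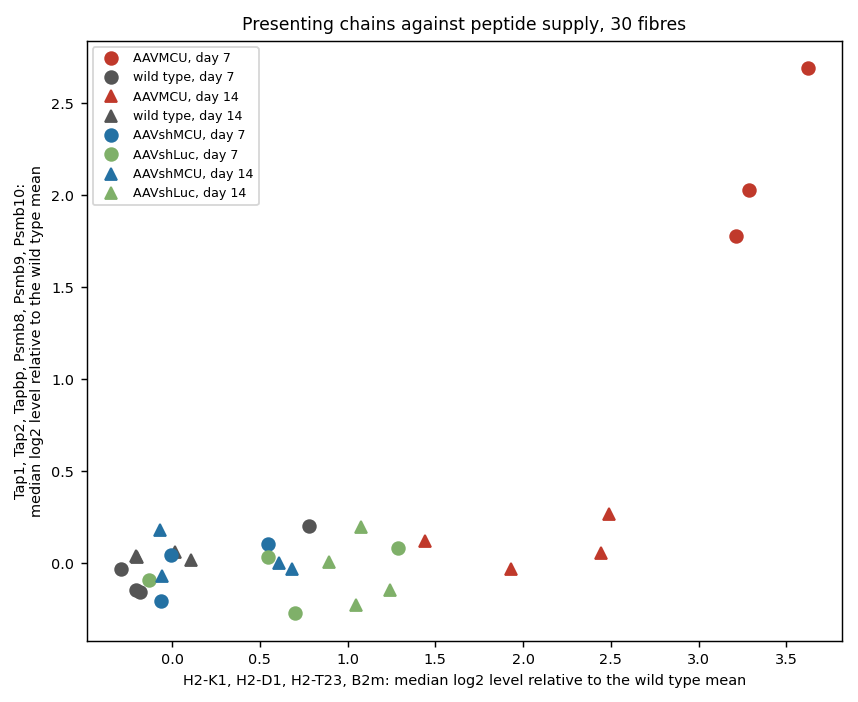
Median log2 level of the 4 heavy and light chain genes (x axis) and of the 6 peptide supply genes (y axis) in each of the 30 fibres, relative to the wild type mean. The AAVMCU fibres of day 7 lie at 3.21 to 3.62 on x and 1.78 to 2.69 on y, and those of day 14 at 1.44 to 2.49 on x and -0.03 to 0.27 on y.

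AAVshLuc fibres, which carried a control virus, were also above wild type fibres in part of the set. Both groups lay on different slides, so slide and group cannot be told apart, and the wild type fibres are those of the AAVMCU comparison, just as the AAVshLuc fibres are those of the AAVshMCU comparison further on. B2m stood at 1.81, 1.87, 3.44 and 1.12 in AAVshLuc fibres of day 7, against 0.84, 0.44, 1.13 and 0.42 in wild type fibres, and the groups overlapped by a narrow margin. The difference was 1.35 ± 0.33 (log2, SE). At day 14 B2m was at 2.14, 1.88, 2.23 and 2.30 in AAVshLuc fibres, against 0.39, 1.21, 0.93 and 0.85 in wild type fibres, with no overlap and a difference of 1.29 ± 0.33 (SE). H2-D1 gave 4.17, 4.03, 4.07 and 4.32 in AAVshLuc fibres of day 14 and 2.26 to 2.56 in wild type fibres, a difference of 1.71 ± 0.33 (SE), against 0.53 ± 0.33 (SE) at day 7. H2-T23 differed by 0.23 ± 0.23 at day 7 and 0.79 ± 0.23 at day 14 (SE). The H2-K1 probes disagreed in size, with 0.49 ± 0.29 and 0.76 ± 0.29 for the brighter, and 1.94 ± 0.57 and 2.18 ± 0.57 for the dimmer (SE, day 7 and day 14). Groups of day 7 did not overlap upwards in 0 of 10 members, beside 7.61% of all probes. At day 14 they did so in 4 of 10, the heavy chains and B2m, beside 7.5% of all probes. At an adjusted p below 0.05 B2m was higher at day 7 (1 of 10, beside 5.69% of all probes), and H2-D1, H2-T23 and B2m at day 14 (3 of 10, beside 5.38%). These counts too involve the wild type fibres on which the members were picked, and nothing is read from them.

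The 6 genes of peptide supply had a median difference between AAVshLuc and wild type fibres of -0.07 at day 7 and -0.04 at day 14 (log2), beside -0.05 and -0.06 over all probes. Tap2 differed by -0.47 ± 0.24 and -0.37 ± 0.24, and Psmb9 by -0.03 ± 0.18 and -0.20 ± 0.18 (SE). Tap1 was well above background in 1 of the 8 AAVshLuc fibres and in none of the wild type fibres. The AAVshLuc group was outside the contrast on which the members were chosen. Within it limma called 0 of 10 members between day 14 and day 7, beside 1.76% of all probes called higher. At an unadjusted p below 0.05, H2-D1, H2-T23 and Tap1 were higher (3 of 10, beside 11.1% of all probes). Tap1 passed the filter through the AAVMCU fibres of day 7 alone. Its signal was near background here, so nothing is read from its p. H2-D1 differed by 1.01 ± 0.33 (SE, adjusted p = 0.097) and H2-T23 by 0.48 ± 0.23 (adjusted p = 0.25), and these were the 2 members whose fibres of day 14 all lay above those of day 7, beside 6.58% of all probes. Day and slide cannot be told apart here.

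Silencing of MCU was compared with AAVshLuc on the same slide at each day, in fibres that played no part in the choice of the members. B2m and H2-D1 fell in AAVshMCU fibres, and the genes of peptide supply were not called in either direction. B2m stood at 1.21, 1.45 and 0.86 in AAVshMCU fibres of day 7, against 1.81, 1.87, 3.44 and 1.12 in AAVshLuc fibres. At day 14 it stood at 0.70, 0.54, 1.54 and 1.53 in AAVshMCU fibres, against 2.14, 1.88, 2.23 and 2.30 in AAVshLuc fibres. The fibres of day 14 did not overlap, and those of day 7 did. Over both days the difference was -0.97 ± 0.24 (log2, SE), a ratio of 0.510, with an adjusted p of 0.01 by limma across all probes. H2-D1 gave 2.65, 3.34 and 2.36 in AAVshMCU fibres of day 7, against 3.30, 3.22, 3.67 and 2.38 in AAVshLuc fibres. At day 14 it gave 2.53, 2.35, 3.23 and 3.31 in AAVshMCU fibres, against 4.17, 4.03, 4.07 and 4.32 in AAVshLuc fibres. Again the fibres of day 14 alone were apart, and the difference over both days was -0.83 ± 0.25 (SE, adjusted p = 0.027). This H2-D1 call rested on single fibres. It was lost without the AAVshLuc fibre 3 of day 7 (adjusted p = 0.055), without the AAVshMCU fibre 1 (0.054) or 3 (0.079) of day 7, and without the AAVshMCU fibre 2 of day 14 (0.054). The B2m call held in all 15 fits that left out 1 fibre (adjusted p from 0.0025 to 0.032), but not with only the AAVshMCU and AAVshLuc arrays in the fit (0.061).

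H2-K1 was read differently by its probes. The brighter probe, which decides the call of the gene, differed by -0.49 ± 0.21 (log2, SE, adjusted p = 0.12, interval -0.93 to -0.05), and the mean of both probes by -1.32 (adjusted p = 0.0057). The dimmer probe fell by 2.15 on the log2 scale (SE 0.42, adjusted p = 0.0015) and remained past the threshold in all 15 fits without 1 fibre (0.00039 to 0.0058). Under normexp background correction its difference was -1.05 (adjusted p = 0.0028). Its levels were -2.67, -1.54 and -1.98 in AAVshMCU fibres of day 7, against 0.08, 0.34, 1.64 and -1.47 in AAVshLuc fibres. At day 14 they were -2.52, -2.94, -0.49 and -0.53 in AAVshMCU fibres, against 0.22, -0.08, 0.74 and 1.03 in AAVshLuc fibres. The groups did not overlap at either day, and the AAVshLuc fibre 4 of day 7 came nearest to the AAVshMCU fibres. The dimmer probe is printed in replicate on the array (10 spots), against 1 spot of the brighter. H2-T23, which shares bases with the brighter H2-K1 probe, differed by -0.37 ± 0.17 (SE, adjusted p = 0.14, interval -0.72 to -0.02).

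The peptide supply genes had intervals around 0 in this comparison. Over both days the difference was 0.00 for Psmb9 (95% interval -0.27 to 0.27), 0.09 for Psmb10 (-0.17 to 0.34), 0.17 for Tap2 (-0.20 to 0.53) and -0.22 for Tapbp (-0.67 to 0.22), on the log2 scale. Psmb8 differed by 0.65 (-0.25 to 1.56), with signal well above background in 2 of 7 AAVshMCU and 2 of 8 AAVshLuc fibres. Tap1 differed by 0.14 (-0.29 to 0.56) and was well above background in 0 of 7 AAVshMCU and 1 of 8 AAVshLuc fibres. Changes as large as the day 7 differences of AAVMCU fibres, in either direction, lie outside the intervals of Psmb9, Psmb10, Tap2 and Tapbp, while Psmb8 and Tap1 had too little signal for a level.

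Over both days 2 of 10 members fell in AAVshMCU fibres, beside 5.83% of all probes, and limma called none higher, at an adjusted or an unadjusted p below 0.05, beside 7.83% of all probes at the adjusted one. At an unadjusted p below 0.05 the heavy chains and B2m were lower, 4 of 10 members, beside 12% of all probes. At day 7 alone 0 of 10 members were called lower, beside 4.84% of all probes (B2m alone at an unadjusted p below 0.05, beside 11% of all probes). The dimmer H2-K1 probe differed by -2.21 ± 0.61 at day 7 (SE, adjusted p = 0.019), and by -1.05 under normexp. This call was lost within its slide alone (0.11), without the AAVshLuc fibre 3 of day 7 (0.069) and without the AAVshMCU fibre 1 (0.075) or 3 (0.052). At day 14 H2-D1 fell by 1.30 on the log2 scale (SE 0.33, adjusted p = 0.028), 1 of 10 members, beside 1.91% of all probes. At an unadjusted p below 0.05, 3 of 10 members were lower at day 14, beside 8.73% of all probes. H2-D1 and B2m had no overlap between AAVshMCU and AAVshLuc fibres of day 14, beside 4.57% of all probes that were lower in this way. The H2-D1 call of day 14 was lost without any 1 of the 4 AAVshLuc fibres (adjusted p from 0.05 to 0.074), without the AAVshMCU fibre 1 (0.074) or 2 (0.085), and within its slide alone (0.062). No member had a different AAVshMCU effect at day 14 than at day 7 by limma, beside 1.35% of all probes called higher and 2.57% lower. Tap1 alone had an unadjusted p below 0.05 for that difference, beside 11.1% of all probes. Its signal was well above background in no AAVshMCU fibre and in 1 AAVshLuc fibre, so nothing is read from this p.

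**Figure D4:**
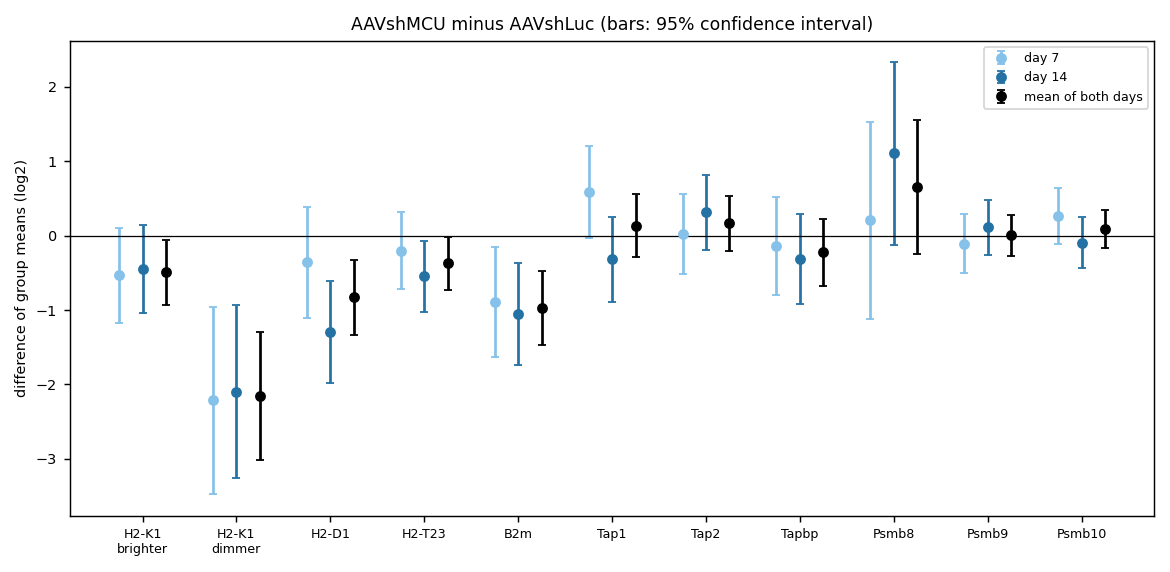
AAVshMCU minus AAVshLuc for the 11 probes (log2 difference of group means, bars are 95% confidence intervals) at day 7, day 14 and over both days. The intervals over both days of H2-D1, H2-T23, B2m and both H2-K1 probes lie below 0, and that of Psmb9 runs from -0.27 to 0.27.

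AAVshMCU fibres were set beside wild type fibres as a description. The median difference over the 10 members was 0.03 at day 7 and 0.21 at day 14 (log2), beside 0.01 and -0.06 over all probes. No member was past an adjusted p of 0.05 in either direction, beside 5.06% of all probes higher and 4.78% lower at day 7, and 3.16% higher and 6.03% lower at day 14. These groups never shared a slide. The counts involve the wild type fibres on which the members were picked, and nothing is read from them.

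Over the 8 groups the mean level of B2m ran 4.28 ± 0.26 in AAVMCU fibres of day 7, 3.05 ± 0.36 in AAVMCU fibres of day 14, 2.13 ± 0.18 in AAVshLuc fibres of day 14 and 2.06 ± 0.98 in AAVshLuc fibres of day 7. Below them came AAVshMCU fibres with 1.17 ± 0.30 at day 7 and 1.08 ± 0.53 at day 14, and wild type fibres with 0.85 ± 0.34 at day 14 and 0.71 ± 0.34 at day 7 (SD, n = 3 or 4). The AAVMCU fibres of day 7 stood apart from every other group by more than these SDs, and so did those of day 14 but for the AAVshLuc fibres of day 7, whose highest fibre reached 3.44. The AAVshLuc groups did not differ from each other by more than their spread, nor did the AAVshLuc and AAVshMCU fibres of day 7, or neighbours among the AAVshMCU and wild type groups. For Psmb9 the AAVMCU fibres of day 7, at 2.35 ± 0.68 (SD, n = 3), stood apart, and the other 7 group means lay between -0.39 and 0.00.

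In some groups 1 fibre was the highest in most probes. The AAVMCU fibre 3 of day 7 was the highest of its group in 11 of 11 probes, and fibre 1 the lowest in 10 of 11. The wild type fibre 3 of day 7 was the highest of its group in 8 of 11 probes, as was the AAVshLuc fibre 3 of day 7. The AAVshMCU fibre 2 of day 7 was the highest of its group in 9 of 11 probes, and the AAVMCU fibre 1 of day 14 in 7. In the AAVshMCU and AAVshLuc groups of day 14 no fibre was the highest in most probes. The AAVshMCU fibres of day 14 were the highest in 2, 3, 4 and 2 probes, and the AAVshLuc fibres of day 14 in 3, 2, 1 and 5. The wild type fibre 2 of day 14 was the highest in 7 probes and the lowest in 3. Without the wild type fibre 3 of day 7 the AAVMCU median over the members at day 7 was 3.25, against 2.99 with it. Without the AAVshLuc fibre 3 of day 7 the B2m difference of AAVshMCU over both days was -0.74 (adjusted p = 0.013). Correlations between fibres of a group over all kept probes were 0.946 to 0.982, the 75th percentile of signal ranged from 82.5 to 136, and the share of probes above background lay between 49.4% and 59.5%.

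Promoters of the members are shown because the heavy chains and B2m were high in AAVMCU fibres at both days, and the peptide supply genes at day 7. RefSeq promoter sequences (GRCm38.p6) were found for 9 of 10 members, and Tap2 had no entry. The bases before the start of H2-K1, H2-D1 and B2m and between the divergent starts of Psmb9 and Tap1 follow, with 4 motifs in capitals on either strand. These were AANNGAAA, an element bound by interferon regulatory factors, the NF-kappa B consensus, CCAAT, the box bound by NF-Y, and TGACG, part of sites for CREB-like factors.
H2-K1 (chr17:34000348-34000547, minus strand): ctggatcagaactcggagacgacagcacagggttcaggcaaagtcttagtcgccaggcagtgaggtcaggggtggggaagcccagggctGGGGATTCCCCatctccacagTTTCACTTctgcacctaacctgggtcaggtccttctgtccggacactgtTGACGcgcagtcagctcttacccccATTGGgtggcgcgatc
H2-D1 (chr17:35262894-35263093, plus strand): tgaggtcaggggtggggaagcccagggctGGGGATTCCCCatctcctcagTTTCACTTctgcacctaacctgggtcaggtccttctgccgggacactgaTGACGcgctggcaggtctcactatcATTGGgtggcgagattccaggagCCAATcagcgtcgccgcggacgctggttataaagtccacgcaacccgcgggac
B2m (chr2:122147487-122147686, plus strand): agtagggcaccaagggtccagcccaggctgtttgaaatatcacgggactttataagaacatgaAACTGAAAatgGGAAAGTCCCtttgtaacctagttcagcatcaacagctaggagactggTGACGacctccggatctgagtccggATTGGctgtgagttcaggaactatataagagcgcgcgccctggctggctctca
Psmb9 to Tap1 (chr17:34187331-34187555, plus strand): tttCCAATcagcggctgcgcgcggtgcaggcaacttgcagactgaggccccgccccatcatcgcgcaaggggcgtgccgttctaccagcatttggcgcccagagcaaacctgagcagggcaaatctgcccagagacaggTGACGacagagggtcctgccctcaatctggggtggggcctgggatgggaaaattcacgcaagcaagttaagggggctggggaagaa
AANNGAAA occurred within 250 bases before the start in 4 of 4 heavy and light chain genes and in 0 of 5 peptide supply genes with an entry, and in 21.3% of all 32851 promoters. The NF-kappa B consensus occurred in H2-K1, H2-D1 and B2m, so in 3 of 4 heavy and light chain genes and 0 of 5 peptide supply genes, and in 7.25% of all promoters. In B2m it overlaps no other motif, and in H2-K1 and H2-D1 it matches in overlapping frames. CCAAT occurred in 4 of 4 and 3 of 5 of them (33.8% of all promoters), and TGACG in 3 of 4 and 2 of 5 (17.8% of all promoters). Psmb9 and Tap1 share the window printed above, so its CCAAT and its TGACG each count for both genes. TTCNNNGAA, the core of a site for STAT proteins, occurred in Psmb8 alone (7.02% of all promoters). H2-K1 and H2-D1 agreed in 166 of 190 bases when aligned at the shift with most matches. A match is only a run of letters, and no match says only that these letters are not in this window.

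Some other class I genes differed in the same direction as the heavy chains above, and others did not. Of 22 listed class I and class I-like genes, 18 had a kept probe. In AAVshMCU fibres 3 of the 18 fell against AAVshLuc over both days, beside 5.83% of all probes, and none rose by limma (1 at an unadjusted p below 0.05). These were H2-K2 at -1.12 ± 0.31 (log2, SE, adjusted p = 0.019), H2-Bl at -1.11 ± 0.27 (adjusted p = 0.0088) and H2-Q7 at -0.90 ± 0.26 (adjusted p = 0.025). Their probes may read the heavy chains above. In AAVMCU fibres 9 of the 18 were higher than in wild type fibres at day 7 at an adjusted p below 0.05 by limma, beside 0.482% of all probes, and 8 at day 14, beside 0.289%. The members were chosen on this contrast and these probes may read them, so nothing is read from the 2 AAVMCU counts. The list's median difference was 1.03 at day 7 and 0.32 at day 14, against 3.33 and 2.14 in the heavy chains and B2m. H2-K2 differed by 3.80 ± 0.46 and 2.54 ± 0.42, and H2-Q2 by 3.67 ± 0.39 and 2.52 ± 0.36 (SE, day 7 and day 14).

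The partners that fold and load class I, and the ordinary proteasome, had median differences near 0. In AAVMCU fibres the median over the folding, loading and trimming genes was 0.08 at day 7 and -0.04 at day 14 (log2). Over the proteasome genes outside the immunoproteasome it was 0.11 and 0.03. In AAVshMCU fibres over both days these medians were -0.13 and -0.02. Of 11 kept genes for folding, loading and trimming, 1 fell in AAVshMCU fibres, beside 5.83% of all probes. It was Sec61a1, a subunit of the protein channel of the endoplasmic reticulum, at -0.58 ± 0.19 (log2, SE, adjusted p = 0.04). None of the 11 was past the threshold in AAVMCU fibres at either day, beside 0.482% of all probes higher at day 7 and 0.289% at day 14. Uggt1, another of the 11, differed by 0.95 ± 0.27 at day 7 and 0.33 ± 0.25 at day 14 (SE). Tapbpl, the tapasin-like loading factor, differed by 2.70 ± 0.72 (SE) at day 7, with signal well above background in 3 of 3 AAVMCU and 2 of 4 wild type fibres. Of 15 proteasome genes outside the immunoproteasome, 0 were called in AAVshMCU fibres by limma, beside 5.83% of all probes lower and 7.83% higher. At an unadjusted p below 0.05, 2 of them were lower, beside 12% of all probes. In AAVMCU fibres 1 was higher at day 7, beside 0.482% of all probes. It was the interferon-inducible activator subunit Psme2, at 1.31 ± 0.25, with 0.16 ± 0.23 at day 14 (SE). Nothing is read from the counts of these lists. Psmb7, the subunit that Psmb10 replaces, differed by 0.29 ± 0.21 at day 7 and 0.30 ± 0.19 at day 14 (SE).

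Of 24 kept genes for interferon signalling and for the factors that induce class I, 6 fell in AAVshMCU fibres, beside 5.83% of all probes, and 1 rose, beside 7.83%. Jak1, a kinase of all interferon receptors, fell by 1.16 on the log2 scale (SE 0.18, adjusted p = 2e-04), and Irf8, an interferon regulatory factor, fell by 1.52 (SE 0.34, adjusted p = 0.0047). Stat2, which carries the type I interferon signal, fell by 1.64 (SE 0.33, adjusted p = 0.0023), with signal well above background in 3 of 7 AAVshMCU and 8 of 8 AAVshLuc fibres. The others that fell were Socs1 at -1.07 ± 0.26, Ptpn2 at -0.67 ± 0.18 and Rela at -0.47 ± 0.15 (SE). Rfxank, a factor that binds class I and class II promoters, rose by 0.58 (SE 0.13, adjusted p = 0.0042). AAVshLuc minus wild type, on different slides, was 0.82 at day 7 and 1.07 at day 14 for Jak1. It was 1.39 and 2.50 for Irf8, 0.32 and 2.52 for Stat2, and -0.19 and 0.09 for Rfxank. Stat2 was well above background in no wild type fibre of day 14. In AAVMCU fibres 5 of the 24 were higher at day 7, beside 0.482% of all probes, and 1 at day 14, beside 0.289%. Irf9, the DNA-binding partner of Stat2, differed by 2.96 ± 0.38 at day 7 and 1.31 ± 0.36 at day 14, and Irf8 by 3.08 ± 0.50 and -0.04 ± 0.46 (SE). Irf7 was well above background in 3 of 3 AAVMCU and 0 of 4 wild type fibres at day 7. The lists were set up with earlier results of these data known, and nothing particular to a list is read from these counts.

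Markers of other cell types were looked at because leukocytes carry much class I. Of 26 leukocyte names listed, 23 probes were on the array, and 9 to 15 of them were well above background in a fibre. Their summed signal, in multiples of the array's 75th percentile, was 331 to 344 in AAVMCU fibres and 297 to 356 in wild type fibres at day 7. At day 14 it was 310 to 364 in AAVMCU fibres and 318 to 331 in wild type fibres. Klrd1 was well above background in no fibre, Cd8b1, Itgax and Laptm5 in 1, and Cd3g in 2. S100a9, of neutrophils and monocytes, was well above background in 2 of 3 AAVMCU and 0 of 4 wild type fibres of day 7. S100a8, Tyrobp and Laptm5 were so in 1 of 3 AAVMCU and 0 of 4 wild type fibres of day 7. Other markers of the list went the other way at day 7. Gzma was so in 1 of 3 AAVMCU and 3 of 4 wild type fibres, Lyz2 in 2 of 3 and 4 of 4, and Adgre1 in 0 of 3 and 1 of 4. In AAVshLuc fibres of day 7 Tyrobp was well above background in 2 of 4, and S100a8 and S100a9 in 1 of 4 each. In AAVMCU fibres none of the 13 kept leukocyte markers was past the threshold at either day. Beside it, 0.482% of all probes were higher at day 7 and 0.289% at day 14. With shares this small nothing is read from that count. The sums include markers such as Ptprc and Cd3e that were well above background in every fibre. The part of leukocytes in the AAVMCU differences was not tested. The sum was 301 to 344 in AAVshMCU fibres and 243 to 286 in AAVshLuc fibres at day 7, and 263 to 344 in AAVshMCU fibres and 282 to 314 in AAVshLuc fibres at day 14. Of the 13 kept markers 1 fell in AAVshMCU fibres, beside 5.83% of all probes, and 2 rose, beside 7.83%. Cd68, a macrophage marker that other cells also express, fell by 2.10 on the log2 scale (SE 0.48, adjusted p = 0.0056), alongside B2m and H2-D1. Cd4 rose by 0.41 (SE 0.10, adjusted p = 0.0071) and Gzma by 1.35 (SE 0.39, adjusted p = 0.022). Gzma was well above background in 1 of 7 AAVshMCU and 0 of 8 AAVshLuc fibres. The part of such cells in the fall of B2m and H2-D1 was not tested.

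**Figure D5:**
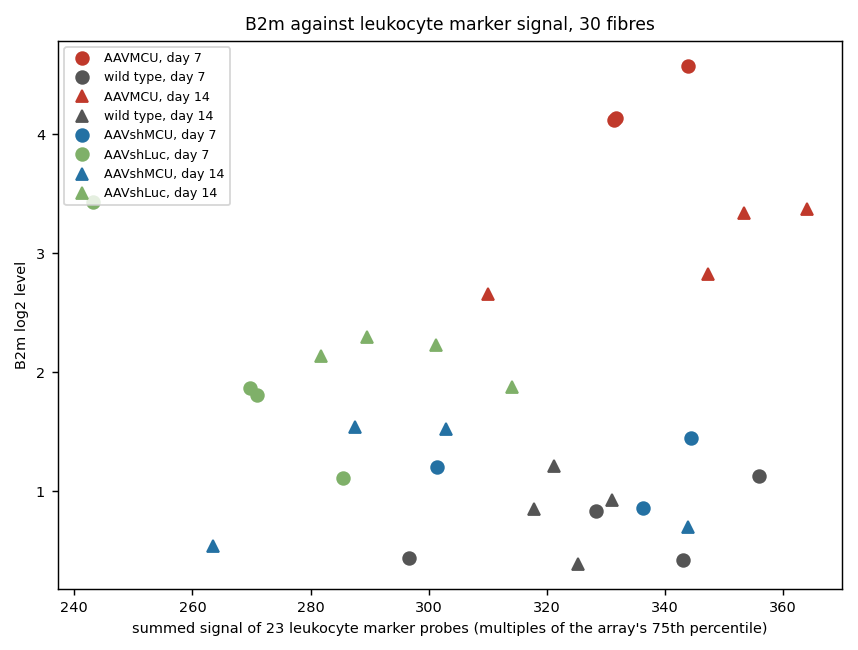
B2m log2 level (y axis) and summed signal of 23 leukocyte marker probes in multiples of the array's 75th percentile (x axis) in the 30 fibres. The AAVMCU fibres of day 7 lie at 331 to 344 on x and at 4.12 to 4.58 on y, and wild type fibres of day 7 at 297 to 356 on x and 0.42 to 1.13 on y.

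The few kept endothelial and fibroblast markers were called in neither comparison, and with so few nothing is read from this. In AAVMCU fibres 0.482% of all probes were higher at day 7 and 0.289% at day 14. In AAVshMCU fibres 0 of 4 kept endothelial and 0 of 4 kept fibroblast markers passed the adjusted threshold by limma. Beside them, 5.83% of all probes were lower and 7.83% higher. At an unadjusted p below 0.05, 1 of each was higher, beside 17.5% of all probes. The median AAVMCU difference of the fibroblast markers was -0.57 at day 7 and -1.95 at day 14 (log2), led by Dcn and Col1a1, which were well above background in 3 of 4 wild type and 0 of 4 AAVMCU fibres at day 14.

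The 5 genes outside the H2 names whose levels were most like those of B2m over the 30 arrays, by the root mean square difference of centred log2 levels, carried no gene symbol. The nearest was an unnamed probe at 0.325, then LOC641235 at 0.381, LOC676689 at 0.409, LOC100047388 at 0.410 and LOC547349 at 0.422. The deposited descriptions call the 4 LOC entries similar to MHC class I or related antigens, and the unnamed probe lies on chromosome 17. The longest run of bases that 1 of these 5 probes shares with any probe under an H2 name was 16. For the nearest probe the AAVMCU level over wild type was 3.71 at day 7 and 2.12 at day 14, close to the 3.57 and 2.21 of B2m (log2).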

How the data were processed

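Spot signals of 30 1-colour arrays were analysed. The deposited scanner files hold intensity per spot from Agilent Feature Extraction 10.7.3.1, background-subtracted and detrended within the array, per the file headers. The submitters' series matrix, deposited as intensity on a linear scale, served as an alternative. Control and outlier spots were left out, the processed intensity was taken as log2 minus the array's 75th percentile, and the spots of a probe were averaged. A probe was kept where 3 or more arrays of any 1 group had it well above background (33164 of 55681).

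Group means of the 8 groups were fitted per probe by limma 3.58.1 (R 4.3.3) with all 30 arrays in the fit (22 residual degrees of freedom, 2-sided, Benjamini-Hochberg over all kept probes). A member was called through its brightest kept probe. An effect over both days averages that of day 7 and that of day 14. The fit was tested on simulated data. Sequence searches and figures used Python 3.11.15 with pandas 2.3.3 and matplotlib 3.10.9.

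The members and lists were chosen with earlier results of these data known. Named were all members, up to 4 genes a list with the largest statistic under silencing and up to 4 with the largest AAVMCU difference, the 5 genes most like B2m, and Mcu; not all are given in the text. Leukocyte markers named by detection alone were picked after their values were seen. Socs1, Ptpn2 and Rela were named in addition, as the rest of their list's genes called lower under silencing. The 4 slides each held a treated group and its control of 1 day, in different columns. Same-numbered fibres deviated together in only 4 of 14 pairs above a correlation of 0.1 (-0.155 to 0.172), so numbers were not taken as pairs. Other backgrounds, scalings, filters, probe rules, array weights, a replicate block and leaving out each fibre were tried. The number of arrays limits the precision.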

Additional observations from a re-analysis of the deposited data

Results flagged for a closer look

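In the wild type fibres of day 7, fibre 3 lay far above the others for the brighter H2-K1 probe (2.26, against 1.10 to 1.18) and for H2-D1 (3.91, against 2.00 to 2.28). For Tap2, fibre 2 lay below the others (-1.75, against -1.11 to -1.06). These were the 3 of 66 groups of 4 fibres in which 1 fibre stood out by Dixon's ratio, and chance alone gives about 1 in 20. The same wild type fibre 3 had the highest Psmb8 level of its group, -0.52.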

How the results depend on the processing

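For AAVshMCU minus AAVshLuc, 2 of 10 members were called over both days, and 1 with only the compared arrays in the fit. At day 7 the count was 0, and 1 under normexp background correction and with the mean of a gene's probes. At day 14 it was 1, and 0 within the slide alone. Leaving out each fibre in turn gave 1 to 2 calls over both days, 0 to 1 at day 7, 0 to 1 at day 14 and 0 for the difference between days. With the replicate block the counts of calls were 2, 0, 1 and 0, and the B2m difference over both days was -0.98. The AAVMCU median over the members at day 7, 2.99, was 2.37 under normexp, and 2.85 to 3.25 without 1 fibre. At day 14 it was 0.65, 0.34 under normexp and 0.46 to 0.80 without 1 fibre. For AAVshLuc minus wild type it was 0.09 to 0.33 without 1 fibre at day 7. At day 14 it was 0.39, 0.15 under normexp and 0.15 to 0.64 without 1 fibre. The dimmer H2-K1 probe's silencing difference over both days, -2.15, was -1.05 under normexp. Medians near 0 changed sign with the scaling. For peptide supply, AAVMCU minus wild type at day 14 was -0.04, against 0.04 under median scaling and normexp, and AAVshLuc minus wild type was -0.07 and -0.04, against 0.10 and 0.12 under median scaling (day 7 and day 14). The AAVMCU median of peptide supply at day 7, 2.14, was 1.38 under normexp. The silencing differences of the H2-K1, H2-D1, H2-T23 and B2m probes over both days kept their direction under the alternatives run.

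Counts over all probes moved more. Over both days 4529 probes were called between AAVshMCU and AAVshLuc, and 2172 with only these arrays. Within the slide 1104 were called at day 7 and 195 at day 14, against 4214 and 1201. Array weights gave 2456 at day 7, and the difference between days had 1300 calls, 416 with only these arrays and 716 with array weights. Of the calls over both days 57.3% were higher in AAVshMCU fibres, 25.9% under median scaling and 73.2% with scaling on probes detected on all arrays. Median scaling moved the median over all probes by more than 0.1, to -0.08 in place of 0.05, and the members' calls over both days were 2 lower under each of the 5 scalings compared. Members near background, Tap1 and Psmb8, are limited by signal.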
